A study of Mus musculus with 247 samples.

Results

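Adgrl2, Lpar1, Scarf1, Gja1, Shisa3 and Il7r are 6 of the 14378 genes in the RNA table of a study of the corepressor subunit GPS2 in RAW264.7 cells, a mouse macrophage line. They were chosen from RNA values, for a far lower level or a far weaker response to lipopolysaccharide (LPS) in GPS2 knockout (KO) cells than in wild-type (WT) cells, so their RNA is described here without a test. RNA was measured in 4 groups of 4 libraries: KO cells after 6 hours with 10 ng/ml LPS, WT cells with the same treatment, untreated KO cells and untreated WT cells. ATAC-seq, which reads open chromatin, covered 3 libraries of untreated KO cells and 3 of an untreated CRISPR control. ChIP-seq covered PU.1 and JunB in KO and WT cells, each after 2 hours with LPS and untreated, and MED1, a Mediator subunit, and RNA polymerase II in KO and WT cells with LPS only, with 2 libraries per group. The labels give no LPS dose for ChIP-seq. The KO was made by CRISPR/Cas9 in this one line of BALB/c origin, all cells grew in DMEM with serum, and no label states that KO libraries came from separate clones or cultures, so p-values measure only the spread between these libraries. These 46 libraries are those with values in the tables, of 247 samples in the series.

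LPS is a component of the bacterial cell wall that macrophages sense through Toll-like receptor 4, and signalling from it activates NF-kB and AP-1 transcription factors. GPS2 is a subunit of the nuclear corepressor complex that also holds NCoR or SMRT and the histone deacetylase HDAC3. PU.1 is the lineage factor that marks macrophage enhancers, JunB is a subunit of AP-1, and MED1 belongs to the Mediator complex that links enhancers to RNA polymerase II. The 6 genes encode proteins of the cell surface or its traffic. Adgrl2 encodes latrophilin 2, an adhesion G protein-coupled receptor, and Lpar1 a receptor for the lipid lysophosphatidic acid (LPA). Scarf1 encodes a class F scavenger receptor, Gja1 the gap junction protein connexin 43, Shisa3 a transmembrane protein of the Shisa family, whose founding frog member acts on Wnt and FGF receptors, and Il7r the alpha chain of the interleukin 7 receptor, which is also used by thymic stromal lymphopoietin.

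In build mm9, the RNA table places Adgrl2 (NM_001081298) at chr3:148478550-148617599 on the minus strand, Lpar1 (NM_010336) at chr4:58448124-58566363 on the minus strand and Scarf1 (NM_001004157) at chr11:75327043-75340082 on the plus strand. Gja1 (NM_010288) lies at chr10:56097106-56110225 on the plus strand, Shisa3 (NM_001033415) at chr5:67999122-68005226 on the plus strand and Il7r (NM_008372) at chr15:9435914-9459631 on the minus strand. The deposited tables assign 91 sites to the 6 genes as their nearest gene: 30 in ATAC-seq, 26 in PU.1, 20 in JunB, 8 in MED1 and 7 in RNA polymerase II. Distances below are those of the tables, to the nearest annotated start of the gene, and several Lpar1 sites upstream of its shorter form lie inside intron 1 of the longer one. Joined where they overlap, the sites form 52 stretches, of which 31 were seen in 1 table, 21 in at least 2 and 11 in at least 3. Lpar1 had 17 such stretches, Adgrl2 13, Shisa3 12, Il7r 5, Gja1 3 and Scarf1 2.

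The sites below are shown because they carry the chromatin results described further on, and they were picked after their values had been seen. Each line gives 201 bases around the centre of a site, on the plus strand of the NCBIM37 (mm9) reference, 5′ to 3′. Capitals mark a match to the AP-1 letters TGANTCA or the PU.1 letters GAGGAAGT on either strand. The first pair lies 36.1 and 36.0 kb downstream of the Adgrl2 start, in intron 1, at chr3:148581395-148581595 (a PU.1 site, with a PU.1 match) and chr3:148581536-148581736 (a JunB site, with an AP-1 match), so that the printed stretches overlap. The first Lpar1 JunB site lies 21.6 kb downstream of the start of the shorter form, in an intron (chr4:58490579-58490779, an AP-1 match). The second lies 32.7 kb upstream of the start of the longer form, between genes (chr4:58598935-58599135, a PU.1 match).
Adgrl2 PU.1 site, 36.1 kb downstream: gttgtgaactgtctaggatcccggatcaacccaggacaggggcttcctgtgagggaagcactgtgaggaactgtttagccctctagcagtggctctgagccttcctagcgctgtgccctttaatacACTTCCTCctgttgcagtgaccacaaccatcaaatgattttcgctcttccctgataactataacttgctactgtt
Adgrl2 JunB site, 36.0 kb downstream: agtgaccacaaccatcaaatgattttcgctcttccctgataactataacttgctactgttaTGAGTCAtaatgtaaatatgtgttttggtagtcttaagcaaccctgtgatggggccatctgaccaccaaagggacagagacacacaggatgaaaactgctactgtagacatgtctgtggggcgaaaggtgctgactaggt
Lpar1 JunB site, 21.6 kb downstream: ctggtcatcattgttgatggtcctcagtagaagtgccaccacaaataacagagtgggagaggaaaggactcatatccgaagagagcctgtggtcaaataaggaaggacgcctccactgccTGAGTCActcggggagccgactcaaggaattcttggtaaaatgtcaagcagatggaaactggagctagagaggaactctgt
Lpar1 JunB site, 32.7 kb upstream: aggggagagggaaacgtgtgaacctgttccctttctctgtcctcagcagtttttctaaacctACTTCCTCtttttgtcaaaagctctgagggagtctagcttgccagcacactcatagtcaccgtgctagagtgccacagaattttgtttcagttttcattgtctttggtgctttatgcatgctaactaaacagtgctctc
The Shisa3 JunB site at chr5:68034820-68035020 lies 35.8 kb downstream of the start, inside an intron of the neighbouring gene Atp8a1, and holds an AP-1 match. The Il7r JunB sites lie 26.2 kb upstream between genes (chr15:9485752-9485952, 4 AP-1 matches) and 1.5 kb downstream in intron 1 (chr15:9458035-9458235, an AP-1 match).
Shisa3 JunB site, 35.8 kb downstream: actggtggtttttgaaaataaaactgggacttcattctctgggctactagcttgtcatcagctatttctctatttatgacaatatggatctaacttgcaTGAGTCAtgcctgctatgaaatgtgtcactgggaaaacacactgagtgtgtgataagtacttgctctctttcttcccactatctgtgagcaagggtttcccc
Il7r JunB site, 26.2 kb upstream: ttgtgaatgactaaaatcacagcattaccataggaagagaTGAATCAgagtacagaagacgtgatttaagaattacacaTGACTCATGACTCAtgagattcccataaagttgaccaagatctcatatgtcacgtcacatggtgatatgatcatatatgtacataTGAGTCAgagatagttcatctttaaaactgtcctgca
Il7r JunB site, 1.5 kb downstream: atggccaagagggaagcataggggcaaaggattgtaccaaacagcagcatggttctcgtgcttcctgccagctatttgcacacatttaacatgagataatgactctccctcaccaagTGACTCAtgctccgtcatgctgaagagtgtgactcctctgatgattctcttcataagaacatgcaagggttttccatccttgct

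The AP-1 letters stood in the same 201-base window of 11 of the 20 JunB sites (55.0%), against 52.4% of 58840 JunB sites in all. The PU.1 letters stood in 8 of the 26 PU.1 sites (30.8%), against 25.1% of 52033. The NF-kB letters, GGG and TTTCC with any 2 bases between them on either strand, stood in 1 of the 20 JunB sites, at Shisa3, 29.2 kb upstream, against 1.73% of all JunB sites. The PU.1 letters stood in 4 of the 30 ATAC-seq sites (13.3%), against 6.38% of 73105, and in 3 of the 20 JunB sites (15.0%), against 7.09%, counts too small to call either share particular to these genes. A match is a description of the letters and no sign of binding.

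RNA values are reads per 10000000 mapped reads, divided by a scaling factor per library (trimmed mean of M values), and are called normalised reads below. RNA libraries held between 12094940 and 22968591 mapped reads, estimated from the steps between low values since the RNA header gives no totals, and the headers give those of PU.1 between 8096466 and 10389811, JunB between 8649049 and 16006472, MED1 between 9793462 and 11932305, RNA polymerase II between 10230448 and 11113625 and ATAC-seq between 4038814 and 7108592. Gps2 RNA averaged 90.3 ± 9.60 normalised reads in KO and 440.5 ± 36.7 in WT cells with LPS, and 132.4 ± 2.38 in KO and 433.6 ± 18.5 in WT cells without it (SD, n = 4 each). Library 4 of WT cells with LPS stood apart from the other 3 of its group, with a chi-square per gene between 94.1 and 131.3. All 10 macrophage markers had reads in every group. The summed markers of fibroblasts and epithelium (1 of 9 in the table), and of lymphocytes (2 of 9), did not pass 1.92 normalised reads in any library. The summed markers of granulocytes and dendritic cells (4 of 9 in the table) ran from 143.4 to 173.7 in KO and from 214.3 to 314.5 in WT cells with LPS, and from 102.5 to 117.6 in KO and from 28.5 to 33.3 in WT cells without it; their part in the results was not tested. In such bulk samples, fewer cells that make an RNA cannot be told from less RNA per cell.

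The label under which the 6 genes were grouped, genes of the LPS response lost in KO cells, held for some of them only. Adgrl2, Lpar1, Scarf1 and Gja1 were already low or at 0 reads in untreated KO cells. Shisa3 was low mainly where LPS had been given, since its untreated level was near 0 in both genotypes. Il7r was not lost: its level with LPS was close in KO and WT cells, and what differed most was its level before LPS.

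Adgrl2 had 0, 2.04, 0.75 and 0 normalised reads in the 4 libraries of KO cells with LPS, against 192.4, 192.2, 151.5 and 94.0 in those of WT cells with LPS. Without LPS it had no read in any of the 4 KO libraries, against 33.0, 36.2, 42.7 and 48.0 normalised reads in WT cells. The 4 KO libraries with LPS held 4 reads in all, against 1062 in WT. The ratio of means put KO cells 226.1-fold lower with LPS, and at least 109.8-fold lower without it, taking 3 reads over the group as the floor. In WT cells the mean with LPS was 3.94-fold that of untreated cells (log2 difference 1.91 ± 0.31, SE).

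Lpar1 had 2.61, 0.68, 1.504 and 1.91 normalised reads in KO cells with LPS, against 216.8, 203.6, 202.0 and 198.6 in WT cells with LPS. Untreated KO cells again had no read in any library, against 22.6, 21.4, 23.6 and 25.5 normalised reads in untreated WT cells. KO cells were 122.5-fold lower with LPS and at least 64.0-fold lower without it. The few reads that KO cells did have came after LPS, 9 in all. With untreated KO cells set at a floor of 3 reads over the group, KO cells with LPS stood 4.60-fold above them. That ratio is no firm bound, since it rests on these 9 reads. The WT mean was 8.81-fold higher with LPS.

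Scarf1, whose product binds modified lipoproteins and dying cells, kept a low level in KO cells. It had 11.1, 10.9, 8.27 and 14.3 normalised reads in KO cells with LPS, against 249.3, 243.5, 246.1 and 297.8 in WT cells with LPS. In untreated cells it had 5.61, 9.94, 4.32 and 5.10 in KO cells, against 83.7, 91.1, 87.9 and 71.8 in WT cells. KO cells thus stood 23.3-fold lower with LPS and 13.4-fold lower without it, and the mean with LPS was 1.78-fold the untreated one in KO cells and 3.10-fold in WT cells.

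Gja1 was low in KO cells in both conditions, yet its relative response to LPS was not weaker there. It had 14.3, 19.003, 20.3 and 24.9 normalised reads in KO cells with LPS, against 485.9, 489.8, 465.4 and 308.4 in WT cells with LPS. Without LPS it had 1.68, 3.73, 0.48 and 1.02 in KO cells, against 67.0, 89.96, 78.0 and 83.9 in WT cells. KO cells were 22.3-fold lower with LPS and 46.1-fold lower without it. The mean with LPS was 11.4-fold the untreated one in KO cells, which rests on 15 untreated reads, and 5.49-fold in WT cells. With a pseudocount of 1 added to each value before the log, the fitted responses differed by 0.61 ± 0.40 (SE, KO minus WT).

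Shisa3 was the gene of the 6 with the largest LPS response in WT cells. It had 3.91, 4.75, 9.02 and 10.5 normalised reads in KO cells with LPS, against 180.8, 195.8, 154.0 and 169.6 in WT cells with LPS. Before LPS it had 1.12, 0.83, 0.48 and 0.51 in KO cells, against 2.46, 2.19, 3.32 and 2.16 in WT cells, or 6 reads against 22. The mean with LPS was 9.59-fold the untreated one in KO cells and 69.1-fold in WT cells (log2 3.26 and 6.11). With a pseudocount of 1, the fitted log2 responses were 2.14 in KO and 5.64 in WT cells. They differed by -3.51 ± 0.35 (SE, KO minus WT), a size that depends on the pseudocount since untreated levels were so low.

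Il7r went the other way before LPS. It had 30.6, 31.2, 29.3 and 41.1 normalised reads in KO cells with LPS, against 39.1, 40.6, 43.6 and 49.2 in WT cells with LPS, and the groups overlapped, since KO library 4 exceeded 2 of the WT libraries. In untreated cells it had 97.7, 95.6, 103.2 and 114.3 in KO cells, against 10.3, 9.32, 12.9 and 12.97 in WT cells, which put KO cells 9.03-fold higher. The mean with LPS was 3.11-fold lower than the untreated one in KO cells and 3.79-fold higher than it in WT cells. The log2 responses were -1.61 ± 0.13 in KO and 1.84 ± 0.13 in WT cells (SE), and both meet at a similar level with LPS, 33.1 ± 5.42 in KO and 43.1 ± 4.46 in WT cells (SD, n = 4 each).

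**Figure D1:**
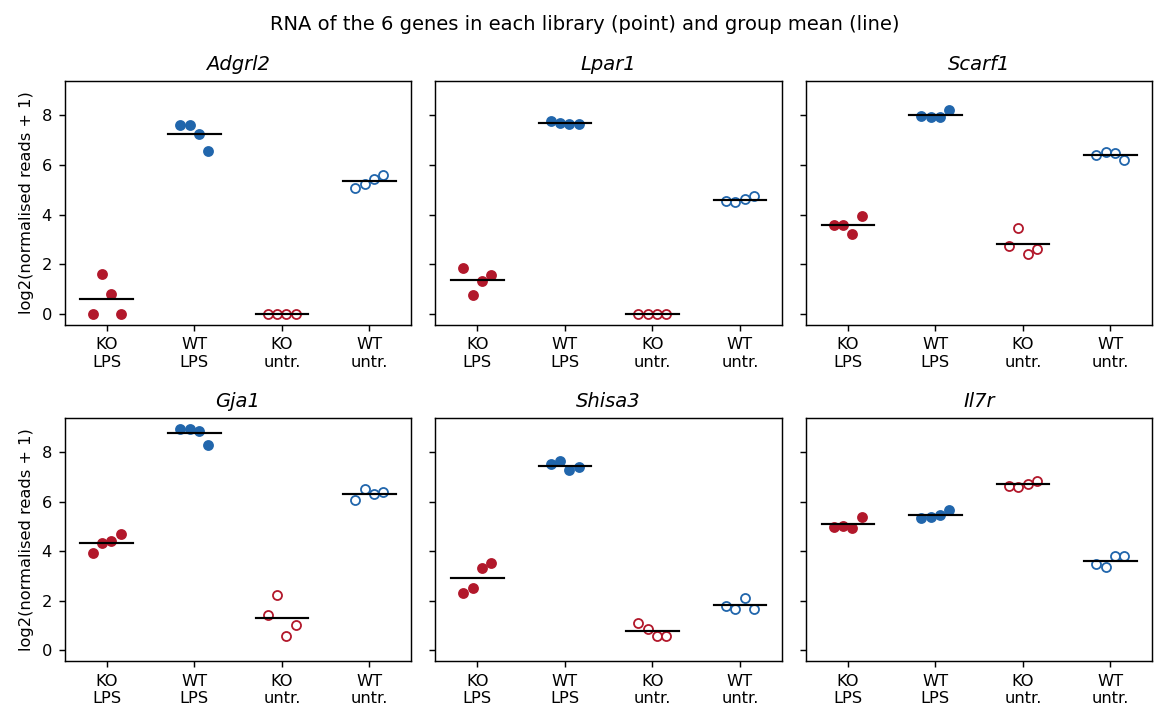
RNA of the 6 genes in each of the 16 libraries, as log2 of normalised reads per 10000000 mapped reads plus 1, with KO left of WT and LPS groups left of untreated ones; points are libraries and lines are group means. Adgrl2 and Lpar1 lie at 0 reads in all untreated KO libraries, and Il7r is the gene whose untreated KO libraries, from 95.6 to 114.3, lie above all its other groups.

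Across all tested genes, 44.1% passed the test between KO and WT cells with LPS, 22.1% higher and 22.1% lower, and 28% with only these 2 groups in the fit. The log2 differences with LPS, KO minus WT, were -6.65 ± 0.31 for Adgrl2, -6.32 ± 0.19 for Lpar1, -4.54 ± 0.25 for Shisa3, -4.44 ± 0.20 for Scarf1 and -4.41 ± 0.28 for Gja1 (SE, after adding a pseudocount of 1). Among 11791 tested genes these held ranks 1, 2, 5, 6 and 8 from the lowest, while Il7r, at -0.38 ± 0.13, held rank 2219. The median of the 6 was -4.49, against 0.00 for all tested genes, which is how they were chosen. Without LPS the difference was -5.01 ± 0.28 for Gja1, -3.60 ± 0.20 for Scarf1, -1.03 ± 0.25 for Shisa3 and 3.08 ± 0.13 for Il7r. Scaling by library totals lowers the median of all genes by 0.38 in the LPS response of KO cells and by 0.46 in that of WT cells on the log2 scale, and no difference given here for the 6 genes changed its sign with it.

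**Figure D2:**
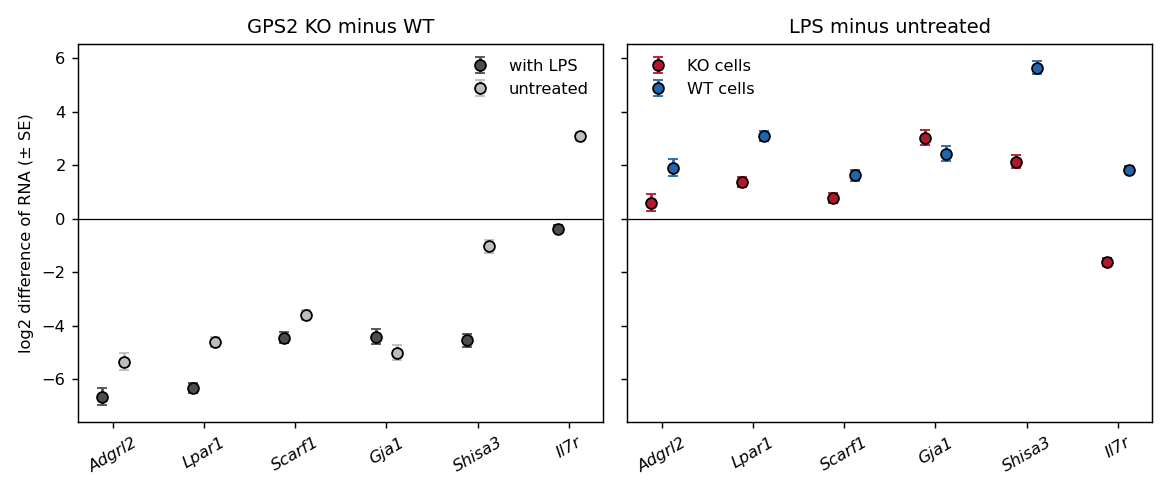
Log2 differences of RNA for the 6 genes with their SE, as fitted across all genes with a pseudocount of 1; KO minus WT with LPS and without it, and LPS minus untreated in KO and in WT cells. Fitted values that involve groups of few reads depend on the pseudocount. These groups are KO cells for Adgrl2 and Lpar1 (0 reads when untreated), untreated KO cells for Gja1 and untreated cells for Shisa3. Gja1 has a response of 3.03 in KO and 2.43 in WT cells, against 3.51 and 2.46 from the group means.

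Per kilobase of transcript, the order of the levels in WT cells with LPS was Gja1 at 141.0 normalised reads per kb, Scarf1 at 90.3, Lpar1 at 61.2, Shisa3 at 46.7, Adgrl2 at 26.1 and Il7r at 13.5. In KO cells with LPS, Il7r came first at 10.3 per kb, then Gja1 at 6.33, Scarf1 at 3.88, Shisa3 at 1.88, Lpar1 at 0.499 and Adgrl2 at 0.116. The gene with the lowest level per length in WT cells was thus the one with the highest in KO cells.

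The 6 genes did not share a single pattern over the 4 RNA groups. Likeness was taken as the root mean square difference of log2 group means with a pseudocount of 1, each centred on the gene's own mean. This measure compresses differences between genes near 0 reads. Adgrl2 and Lpar1 were the most alike pair (0.564), and Il7r stood between 2.80 and 3.75 away from each of the other 5. The tested gene most like Adgrl2 after Lpar1 was Spry2 (0.615), which encodes a Sprouty inhibitor of growth factor signalling. Spry2 averaged 0.672 ± 0.960 in KO and 83.1 ± 11.6 in WT cells with LPS (SD, n = 4 each). Scarf1 was most like Sema6d (0.276), a semaphorin gene, at 0.572 ± 0.405 in KO and 45.5 ± 17.9 in WT cells with LPS. In untreated KO cells, however, Sema6d averaged 0 and Scarf1 6.24 normalised reads. Shisa3 was most like Fscn1 (0.270), which encodes the actin-bundling protein fascin, at 4.59 ± 2.02 in KO and 112.2 ± 14.6 in WT cells with LPS, and like the Notch ligand gene Dll1 (0.331). Gja1 was most like Lpar1 (0.736). Il7r was most like I830077J02Rik (0.290) and the stress cytokine gene Gdf15 (0.348), which averaged 33.2 ± 4.16 in KO and 2.22 ± 0.907 in WT cells without LPS.

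Genes of the same pathways, taken from 7 lists of 96 names with no member of the 6 among them, moved in both directions. Of these, 56 were in the RNA table and 47 were tested. Between KO and WT cells with LPS, 11 rose and 19 fell (63.8%, where 44.1% of all genes passed). Without LPS 12 rose and 12 fell (51.1%, against 35.5% of all genes), and the LPS responses differed for 22 (46.8%, against 20.7%). With only the compared groups in the fit, 25 list genes passed with LPS, where 28% of all genes did. Without LPS 26 list genes passed in such a fit, where 62.8% of all genes did. The number of list genes tested in such fits is not given here, so these counts cannot be read as shares. No excess of list genes is thus shown without LPS in that fit. LPS against no LPS gave 30 higher and 9 lower in KO cells (83.0%, where 67.6% of all genes passed) and 28 higher and 12 lower in WT cells (85.1%, where 70.4% passed).

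Among other receptors of the adhesion class, Adgrl1, which encodes latrophilin 1, also fell, and kept more RNA than Adgrl2. It averaged 14.5 ± 1.75 normalised reads in KO and 41.2 ± 14.8 in WT cells with LPS (log2 -1.37 ± 0.21, adjusted p = 9.77e-05, limma). Adgre1, the macrophage marker F4/80, rose to 1352 ± 26.7 in KO cells with LPS, against 870.5 ± 170.2 in WT (log2 0.66 ± 0.11, adjusted p = 0.000214). Of the latrophilin ligands, Flrt3 averaged 28.5 ± 2.80 in KO and 153.5 ± 21.4 in WT cells with LPS (log2 -2.38 ± 0.19, adjusted p = 9.28e-08), from 0 to 0.83 in every untreated library, and Flrt2 did not pass the test. Of the 16 adhesion receptor genes 4 were tested, with 1 higher and 1 lower (50%), and of the 9 ligand genes 2, with 1 lower (50%). Both shares are near the 44.1% of all genes that passed, and rest on few genes.

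Of 10 tested genes of LPA signalling, 5 rose and 2 fell in KO cells with LPS (70.0%, where 44.1% of all genes passed). Lpar5, another LPA receptor gene, averaged 65.9 ± 9.30 in KO and 31.5 ± 3.97 in WT cells with LPS (log2 1.04 ± 0.10, adjusted p = 1.02e-06), and 282.1 ± 6.64 in KO and 302.5 ± 21.9 in WT cells without it. Plpp3, a lipid phosphatase gene, rose to 8.39 ± 0.66 in KO cells with LPS, against 2.43 ± 1.11 in WT (log2 1.52 ± 0.26, adjusted p = 0.00026). Its difference without LPS was 2.11 (adjusted p = 1.21e-05). Lipg, the endothelial lipase gene, fell to 1512 ± 37.2 in KO cells with LPS, against 4019 ± 898 in WT (log2 -1.38 ± 0.27, adjusted p = 0.000765).

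Of 10 tested scavenger receptors of other classes, 1 rose and 3 fell in KO cells with LPS (40.0%, near the 44.1% of all genes). Cd36, a receptor for oxidised lipoproteins, averaged 1770 ± 87.5 in KO and 6517 ± 1076 in WT cells with LPS (log2 -1.87 ± 0.11, adjusted p = 3.51e-09). Without LPS Cd36 was lower in KO cells by more, at log2 -4.33 (adjusted p = 1.69e-13, limma). Its LPS response was the larger one in KO cells, by 2.47 ± 0.16 on the log2 scale (adjusted p = 2.82e-08). Cxcl16, a membrane-bound chemokine that also binds oxidised lipoprotein, averaged 705.6 ± 21.3 in KO and 2253 ± 291 in WT cells with LPS (log2 -1.67 ± 0.08, adjusted p = 4.05e-10). Its difference without LPS was -2.59 (adjusted p = 2.57e-12). Stab1, a clearance receptor gene, rose to 212.2 ± 8.32 in KO cells with LPS, against 88.1 ± 6.05 in WT (log2 1.26 ± 0.07, adjusted p = 1.16e-09). The connexin list held 1 tested gene, Panx1, a channel gene, which rose to 103.5 ± 13.7 in KO cells with LPS, against 62.9 ± 10.5 in WT (log2 0.72 ± 0.12, adjusted p = 0.000198), and the Shisa list held Shisa5, which fell to 2553 ± 36.7, against 3656 ± 598 (log2 -0.50 ± 0.09, adjusted p = 0.000374).

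The list around Il7r, interleukin 7 and the common gamma chain, had 3 genes higher and 11 lower of 19 tested in KO cells with LPS (73.7%, where 44.1% of all genes passed, 22.1% in each direction), and 7 higher and 4 lower without it (57.9%, where 35.5% passed). With only the untreated groups in the fit, 62.8% of all genes passed. The share of this list in that fit is not given here, so no excess without LPS is shown there. Crlf2, the chain that pairs with Il7r to bind thymic stromal lymphopoietin, fell to 46.6 ± 4.73 in KO cells with LPS, against 243.7 ± 32.9 in WT (log2 -2.36 ± 0.12, adjusted p = 2.48e-10), and to 18.01 ± 1.97 in KO cells without it, against 74.2 ± 7.03 in WT (log2 -1.99 ± 0.12, adjusted p = 1.5e-09). In untreated KO cells, Il7r was thus higher and Crlf2 lower than in WT. Il2rg, the common gamma chain that pairs with Il7r for interleukin 7, was higher in KO than in WT cells with LPS, by 0.42 ± 0.04 on the log2 scale. The kinase gene Jak3 was lower there by 0.71 ± 0.12 and Stat5a by 0.80 ± 0.08. These 3 were picked after their values had been seen. Il21r, another receptor that uses the common gamma chain, rose to 75.7 ± 4.79 in KO cells with LPS, against 11.6 ± 0.69 in WT (log2 2.60 ± 0.19, adjusted p = 3.25e-08). Bcl2, a survival gene, rose to 53.7 ± 7.17 in KO cells with LPS, against 21.5 ± 6.62 in WT (log2 1.32 ± 0.17, adjusted p = 1.52e-05).

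Neighbours gave no common direction. Of 14 tested genes that start within 200 kb of Scarf1, 4 rose and 4 fell in KO cells with LPS (57.1%, where 44.1% of all genes passed). Of the 4 that rose, Wdr81 lost its call in 13 of 16 fits without 1 library (adjusted p up to 0.0979) and with library totals (adjusted p = 0.0671), and Prpf8 in 3 of 16 (adjusted p up to 0.0534). Rilp, the nearest at 3.45 kb, did not pass the test (log2 -0.28 ± 0.47, adjusted p = 0.647). Slc43a2, 18.6 kb away, fell by 0.67 ± 0.13 on the log2 scale, and Serpinf1, 90.9 kb away, rose by 1.46 ± 0.25. Near Shisa3, Bend4 fell by 0.73 ± 0.11, and near Gja1, Tbc1d32 did not pass. No other gene of the RNA table starts within 200 kb of Adgrl2, Lpar1 or Il7r.

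Open chromatin was measured in untreated cells only, and its sites were not used to choose the genes. The deposited values are on a log2 scale whose exact transformation is not stated, so a difference is one on that scale. Of 30 sites, 11 fell and 1 rose in KO against control cells (40.0%, where 7.2% of 73206 sites passed, 4.04% higher and 3.16% lower). Without the trend of the spread 7 of these passed, 6 of them lower, and among sites above the median level 6 passed, 5 of them lower. The share of all sites that passed is not given for these settings, so these counts are not set against it. The lower sites were 7 of the 9 of Lpar1 and 4 of the 5 of Adgrl2, while 0 of 3 at Gja1 and 0 of 8 at Shisa3 passed. Scarf1 has no ATAC-seq site in the table.

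At Lpar1, the site over the start (centre 0.449 kb downstream) had 4.26, 4.46 and 4.49 in KO, against 5.32, 5.08 and 5.12 in control cells. It fell by 0.77 ± 0.08 (adjusted p = 1.62e-16, limma). The site 6.91 kb downstream, in intron 1, fell by 0.38 ± 0.06 (adjusted p = 1.85e-06) and the one 32.7 kb upstream, whose bases are printed above, by 0.31 ± 0.07 (adjusted p = 0.00195). Another 4 Lpar1 sites had lower values by 0.15 to 0.22, and each lost its call without 1 or more of the 6 libraries, with adjusted p up to between 0.0986 and 0.199.

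At Adgrl2, the intron site 36.4 kb downstream had 3.60, 3.58 and 3.65 in KO, against 4.203, 4.18 and 4.28 in control cells, a fall by 0.61 ± 0.07 (adjusted p = 5.71e-14). The sites 34.1 and 4.70 kb upstream, both between genes, fell by 0.53 ± 0.07 (adjusted p = 7.25e-10) and 0.50 ± 0.06 (adjusted p = 9.84e-11). These 3 calls held without each library in turn. The called site 20.1 kb downstream, near 0 on this scale, differed by -0.08 ± 0.03 and lost its call without 4 of the 6 libraries. The site 131.4 kb upstream had 3.53, 3.51 and 3.54 in KO, against 3.46, 3.33 and 3.39 in control cells, and did not pass.

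The sites at the starts of Gja1 and Shisa3 did not pass the test. The Gja1 site 0.899 kb downstream had 3.96, 4.06 and 4.05 in KO, against 4.10, 4.04 and 4.12 in control cells, and the Shisa3 site at its start 2.72, 2.68 and 2.75 in KO, against 2.78, 2.88 and 2.77. At Il7r, the intron site 1.5 kb downstream rose by 0.29 ± 0.08 (adjusted p = 0.0102), with 5.55, 5.56 and 5.61 in KO against 5.28, 5.35 and 5.20 in control cells. Without control library 3 its adjusted p was 0.0867. The other 4 Il7r sites had differences between 0.04 and 0.16 and did not pass.

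**Figure D3:**
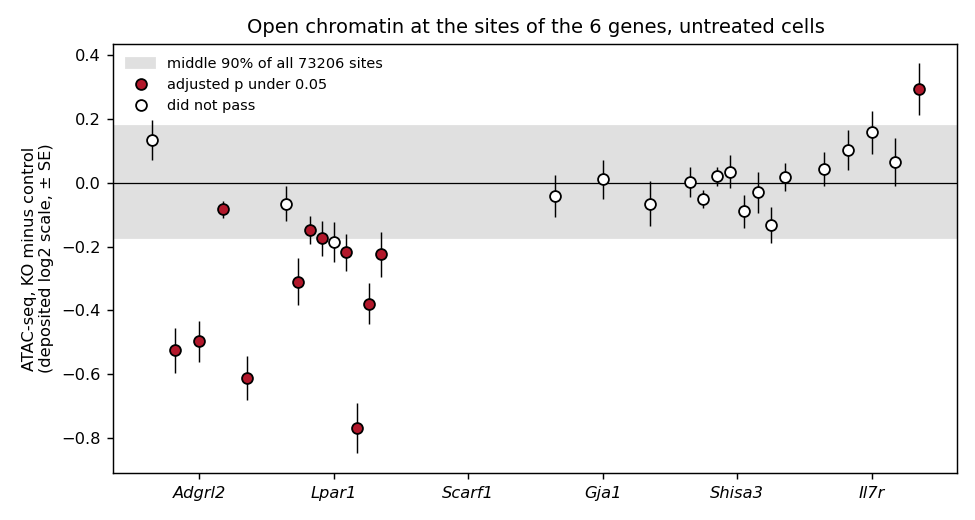
Difference of ATAC-seq values, KO minus control, on the deposited log2 scale, with its SE, for the 30 sites of the 5 genes that have any, ordered within a gene along the axis; red points passed the test and the band holds the middle 90% of all sites, from -0.17 to 0.18. Lpar1 and Adgrl2 hold all 11 lower sites, down to -0.77, and the 3 Gja1 and 8 Shisa3 sites lie within the band.

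The pair of libraries of each ChIP-seq group agreed within sampling noise (chi-square per site between 0.822 and 1.24), so they count as 1 sample, no SD is given, and the tests compare these libraries and not independently grown cells. ChIP-seq values are normalised reads per 10000000 mapped reads. Counts of sites under other settings, such as library totals or no weights, show only how calls move. The share of all sites is not given for those settings, so such counts are not set against the bulk.

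PU.1 sites numbered 26, with 10 at Adgrl2, 10 at Lpar1, 4 at Shisa3, 2 at Il7r and none assigned to Scarf1 or Gja1. Without LPS, 5 fell and 1 rose in KO against WT cells (23.1%, where 7.98% of all sites passed), and with LPS 1 fell (3.85%, where 8.64% passed, 3.67% lower). Scaled by library totals, which lower the median of all sites by 0.56 without LPS and 0.42 with it, 15 and 12 sites fell and none rose. The Adgrl2 site 36.1 kb downstream had 4.21 and 3.64 normalised reads in KO, against 28.2 and 34.8 in WT cells without LPS (log2 -2.80 ± 0.63, adjusted p = 0.000614, limma), and this call held without each library. With LPS it had 11.1 and 5.56 in KO, against 21.8 and 27.5 in WT cells (log2 -1.56 ± 0.51, adjusted p = 0.0319). It did not hold once WT library 2 (adjusted p = 0.154) was left out, nor KO library 1 (adjusted p = 0.152) or KO library 2 (adjusted p = 0.291).

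At Lpar1, the PU.1 site over the start had 2.11 and 2.43 normalised reads in KO, against 12.4 and 16.6 in WT cells without LPS (log2 -2.37 ± 0.67, adjusted p = 0.0111), and 5.56 and 5.56 in KO, against 14.5 and 16.9 in WT cells with LPS (adjusted p = 0.149). Leaving out any of the 4 untreated libraries raised the adjusted p of the first to between 0.0812 and 0.120. The site 21.5 kb downstream had 15.8 and 36.4 in KO, against 36.0 and 43.1 in WT cells without LPS (log2 -0.73 ± 0.24, adjusted p = 0.0373), and its call rested on KO library 1, without which the adjusted p was 0.909; without WT library 2 it was 0.183. It had 55.5 and 50.1 in KO, against 86.1 and 64.6 in WT cells with LPS. The Shisa3 site 7.76 kb upstream had 33.7 and 49.7 in KO, against 48.5 and 53.7 in WT cells without LPS, and 0 of the 4 Shisa3 sites passed in either condition. The remaining called sites without LPS, 21.3 and 733.6 kb downstream of the Adgrl2 start, had at most 10.5 normalised reads in KO libraries, and lost their calls without 1 of several libraries (adjusted p up to 0.443 and 0.305).

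At the Il7r promoter, PU.1 was higher in KO than in WT cells without LPS, relative to the bulk of sites, and did not pass the test with it. The site had 85.3 and 76.4 normalised reads in KO, against 54.4 and 55.2 in WT cells without LPS (log2 0.57 ± 0.15, adjusted p = 0.00483), and 81.8 and 79.3 in KO, against 87.3 and 93.2 in WT cells with LPS. The LPS responses differed by -0.73 ± 0.22 (adjusted p = 0.0158, KO minus WT). With library totals the untreated difference was 0.01 (adjusted p = 0.967) and that of the responses -0.59 (adjusted p = 0.0702). Without untreated WT library 1 or untreated KO library 1 the adjusted p of the untreated difference was 0.0640 or 0.161. The adjusted p of the difference of responses without these was 0.0533 and 0.108, and without WT library 2 or KO library 2 with LPS it was 0.0793 and 0.0646.

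JunB sites numbered 20, with 9 at Lpar1, 4 at Shisa3, 4 at Il7r and 3 at Adgrl2. With LPS, 6 fell and none rose in KO against WT cells, a share of 30.0%, where 29.1% of all sites passed, 14.5% lower. Without LPS, 4 fell (20.0%, where 8.42% passed, 2.16% lower). Library totals gave 7 lower and none higher in each condition, and limma without weights called 0 of the 20 with LPS.

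The Adgrl2 site 36.0 kb downstream had 1.42 and 3.92 normalised reads in KO, against 13.7 and 15.5 in WT cells with LPS (log2 -2.42 ± 0.45, adjusted p = 6.49e-06). Without LPS it had 4.02 and 5.08 in KO, against 34.1 and 22.2 in WT cells (log2 -2.35 ± 0.69, adjusted p = 0.0165; 0.0578 without WT library 1 and 0.0914 without KO library 1). This stretch, where PU.1, JunB and ATAC-seq sites overlap, was lower in KO cells in each of those 3 assays. In WT cells JunB there was lower with LPS than without it by 0.96 ± 0.27 on the log2 scale (adjusted p = 0.0022; 0.237 without untreated WT library 1), and higher by 1.07 with library totals.

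At Lpar1, the site 6.44 kb downstream had 3.803 and 5.88 normalised reads in KO, against 13.03 and 13.5 in WT cells with LPS (log2 -1.41 ± 0.33, adjusted p = 0.000395). The higher site 21.6 kb downstream had 76.0 and 71.7 in KO, against 105.3 and 97.5 in WT cells with LPS (log2 -0.47 ± 0.08, adjusted p = 3.49e-07), and 52.2 and 33.0 in KO, against 40.2 and 43.1 in WT cells without it. The one 32.7 kb upstream had 9.503 and 7.06 in KO, against 14.4 and 18.2 in WT cells with LPS (log2 -0.97 ± 0.27, adjusted p = 0.00311; 0.129 without KO library 2). By contrast, the site 29.0 kb downstream, which holds no call, had 97.4 and 91.7 in KO, against 92.9 and 99.0 in WT cells with LPS. The remaining called Lpar1 site with LPS, 7.58 kb upstream in intron 1, fell by 0.82 ± 0.33 with an adjusted p of 0.0493, and lost its call without 7 of the 8 libraries. Without LPS, that site had 4.02 and 0 in KO, against 15.8 and 15.3 in WT cells (log2 -2.68 ± 0.76, adjusted p = 0.0124), and the one 17.3 kb downstream 0 and 2.55 in KO, against 8.52 and 15.3 (log2 -2.60 ± 0.76, adjusted p = 0.0161); leaving out 1 library raised these to as much as 0.208 and 0.252.

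At Shisa3, the JunB site in the Atp8a1 intron had 71.8 and 74.9 normalised reads in KO, against 82.3 and 82.8 in WT cells with LPS, which did not pass. Without LPS it had 40.2 and 30.5 in KO, against 67.0 and 61.2 in WT cells (log2 -0.82 ± 0.28, adjusted p = 0.0481), and without any one of these 4 libraries the adjusted p was between 0.0974 and 0.227. The site 29.2 kb upstream, which holds the NF-kB letters, had 11.4 and 9.80 in KO, against 11.3 and 14.7 in WT cells with LPS, and 0 and 0 in KO, against 1.21 and 1.39 in WT cells without it. At Il7r, the promoter site was lower in KO than in WT cells with LPS, with 24.2 and 23.9 in KO against 32.6 and 43.7 in WT cells (log2 -0.63 ± 0.16, adjusted p = 0.00144, limma, and 0.0803 without WT library 2). The Il7r sites 1.5 kb downstream and 26.2 kb upstream, whose AP-1 matches are printed above, had 88.4 and 83.1, and 88.4 and 85.1, in KO cells with LPS, against 88.5 and 84.0, and 86.8 and 73.9, in WT cells with LPS.

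The LPS response of these sites was also read within each genotype, with the LPS library pairs over the untreated ones. For PU.1, 7 sites rose and 3 fell in KO cells (38.5%, where 18.9% of all sites passed), and 5 rose in WT cells (19.2%, where 18.7% passed, 11.4% higher). Library totals instead gave 2 higher and 7 lower in KO cells, and 12 lower in WT cells. For JunB, 6 rose in KO cells (30.0%, where 34.7% passed, 14.8% higher), and 8 rose and 3 fell in WT cells (55.0%, where 38.7% passed), while library totals, which raise the median of all JunB sites by 2.19 in KO and 2.04 in WT cells, gave 19 and 18 higher. The Il7r JunB site 26.2 kb upstream rose with LPS by 0.83 ± 0.22 in KO cells (adjusted p = 0.00167) and by 1.16 ± 0.20 in WT cells (adjusted p = 6.63e-07), and the Shisa3 site in the Atp8a1 intron by 1.01 ± 0.25 in KO cells (adjusted p = 0.000745) and 0.35 ± 0.15 in WT cells (adjusted p = 0.0497, and between 0.0599 and 0.297 without any one of the 4 WT libraries), with no call for the difference of these responses. That difference was called for 2 of the 26 PU.1 sites (7.69%, where 8.23% passed) and 1 of the 20 JunB sites (5.0%, where 5.17% passed).

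**Figure D4:**
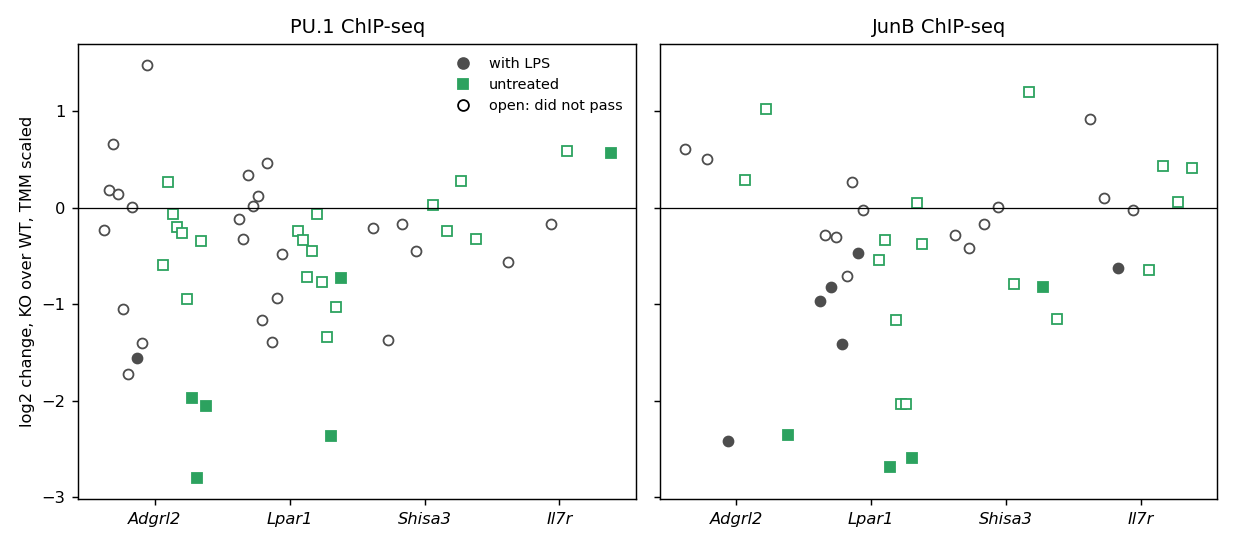
PU.1 (left) and JunB (right) log2 differences, KO over WT, scaled by trimmed mean of M values, at the sites of the 4 genes that have any; circles are cells with LPS, squares untreated cells, and filled symbols passed the test. The Adgrl2 sites 36.1 kb (PU.1) and 36.0 kb (JunB) downstream are filled in both conditions, from -1.56 to -2.80, while the Il7r PU.1 promoter site stands at 0.57 without LPS.

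MED1 and RNA polymerase II were measured with LPS only. Of 8 MED1 sites 1 fell (12.5%, where 7.08% of all sites passed, 1.92% lower), and of 7 RNA polymerase II sites 2 rose and 2 fell (57.1%, where 44.4% passed). Scaling by library totals lowers the median of all sites by 0.77 for MED1 and 1.89 for RNA polymerase II and gives 7 of 8 and 5 of 7 lower and none higher, so the directions below are relative to the bulk of sites.

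At the Lpar1 start, MED1 had 17.1 and 18.5 normalised reads in KO, against 35.9 and 36.3 in WT cells (log2 -0.99 ± 0.29, adjusted p = 0.0227). Leaving out 1 library at a time gave adjusted p between 0.0600 and 0.135, with fewer libraries to estimate the spread. RNA polymerase II there had 8.86 and 8.66 in KO, against 32.5 and 33.8 in WT cells (log2 -1.79 ± 0.41, adjusted p = 0.000287). At the Adgrl2 site 34.1 kb upstream, polymerase had 8.86 and 10.4 in KO, against 19.01 and 26.2 in WT cells (log2 -1.11 ± 0.41, adjusted p = 0.0252), and at the one 4.99 kb upstream 10.6 and 10.4 in KO, against 9.51 and 13.3. In the Lpar1 intron, 21.5 kb downstream, polymerase had 5.31 and 20.8 in KO, against 6.51 and 2.85 in WT cells (log2 1.36 ± 0.52, adjusted p = 0.0304), a rise that was -0.53 with library totals and that lost its call without WT library 2 (adjusted p = 0.403).

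At the Shisa3 start, MED1 had 5.72 and 5.44 normalised reads in KO, against 13.3 and 19.3 in WT cells (log2 -1.42 ± 0.49, adjusted p = 0.0643), and polymerase 3.53 and 6.91 in KO, against 6.00 and 8.56. MED1 over the Scarf1 start, a site that the table places at the 3′ end of Rilp, had 2.29 and 3.26 in KO, against 7.81 and 8.503 in WT cells (log2 -1.37 ± 0.62, adjusted p = 0.184), and polymerase within Scarf1 3.53 and 12.1 in KO, against 15.0 and 16.2 (log2 -1.06 ± 0.48, adjusted p = 0.0671). At Il7r, MED1 1.202 kb downstream had 66.3 and 69.6 in KO, against 66.4 and 78.1 in WT cells, while polymerase 1.28 kb downstream had 35.4 and 22.5 in KO, against 10.5 and 10.9 in WT cells (log2 1.41 ± 0.33, adjusted p = 0.00048). With library totals that rise was -0.48 (adjusted p = 0.165). Gja1 has no MED1, polymerase, PU.1 or JunB site in these tables.

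**Figure D5:**
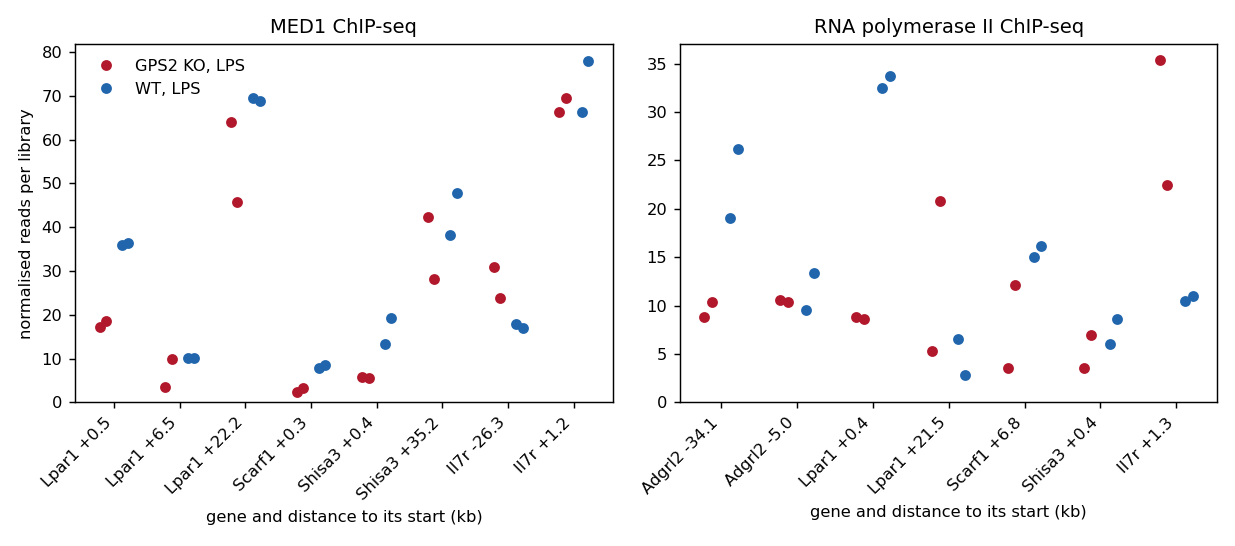
MED1 and RNA polymerase II at the sites of these genes, in the 2 KO (red) and 2 WT (blue) libraries with LPS; each point is a library, in normalised reads per 10000000 mapped reads, with KO left of WT. At the Lpar1 start, MED1 stands at 17.1 and 18.5 in KO against 35.9 and 36.3 in WT libraries, and polymerase at 8.86 and 8.66 against 32.5 and 33.8.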

How the data were processed

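RNA-seq, PU.1, JunB, MED1 and RNA polymerase II values were deposited as reads per 10000000 mapped reads for each gene or merged site, which are treated here as a score and not as counts, per the file headers. ATAC-seq values were deposited by the authors on a log2 scale, with the transformation not given in the sources used here. The submitters' processing notes name BWA, Bowtie2, HISAT2, HOMER, MACS2, DESeq2, edgeR and the build mm9. Another 8 columns of per-sample values were not used.

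For ChIP-seq, totals of mapped reads in the headers turned 100.0% of values of up to 200 reads into whole reads, within 0.05 of a read. The RNA header gives no totals, so the value of 1 read was fitted in each library to the steps between low values, and that 100.0% of these were whole is partly set by the fit. From these, trimmed-mean scaling factors were computed. RNA was tested with limma 3.58.1 (R 4.3.3, data.table at version 1.17.8; mean trend of the spread) on log2 of the scaled value plus a pseudocount of 1, ChIP-seq with limma on log2 values with voom weights, and ATAC-seq with limma on the deposited values. All groups of an assay shared 1 fit. A gene or site was kept with 15 reads in all and, at median depth, 10 in a number of libraries equal to the size of the smallest group. This kept 11791 of the 14378 genes, and 23081 of 23360 sites for polymerase, 26052 of 26718 for MED1, 58810 of 58888 for JunB, 52009 of 52093 for PU.1 and all 73206 for ATAC-seq. A call is a Benjamini-Hochberg adjusted p under 0.05 over the whole table, and SE is that of the fit. The steps were tested on simulated data. Tables were read with Python 3.11.15 (pandas 2.3.3, numpy 2.4.6) and drawn with matplotlib 3.10.9.

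The 6 genes, the gene lists and the marker lists were chosen with earlier results of these data known. Named by rule were all 6 genes, for each gene and assay the site nearest the start, the one with the highest mean and the called one with the largest difference, and up to 3 genes of each list; other sites and genes were picked after their values had been seen. Replicate numbers did not pair the libraries. Whole reads are not independent molecules, so their number covers counting error only.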

Additional observations from a re-analysis of the deposited data

Results flagged for a closer look

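In 7 of 77 groups of 4 RNA libraries, 1 library stood apart from the other 3 by Dixon's criterion, where chance gives about 1 in 20. Among the 6 genes, Scarf1 had 297.8 normalised reads in library 4 of WT cells with LPS, against 243.5 to 249.3 in the other 3. Gja1 had 308.4 in that library, against 465.4 to 489.8. Il7r had 41.1 in library 4 of KO cells with LPS, against 29.3 to 31.2. Of the list genes, Shisa5 had 2768 in library 4 of WT cells with LPS, against 3835 to 4031, and Adgre1 had 759.5 in library 4 of untreated WT cells, against 678.4 to 689.2. Lipg had 1567 in library 3 of KO cells with LPS, against 1489 to 1501, and Cxcl16 had 111.7 in library 4 of untreated KO cells, against 132.5 to 136.3.

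The LPS response differed between KO and WT cells, by a test of the difference itself, for 8 named list genes. KO minus WT, on the log2 scale, it was 2.47 for Cd36, 1.82 for Il21r, 1.14 for Lpar5, 1.09 for Stab1, 0.92 for Cxcl16, 0.70 for Panx1, 0.67 for Adgre1 and -2.02 for Flrt3. Named list genes were picked for a large called difference between KO and WT cells with LPS, which is a part of this test. These calls are thus favoured by the choice of genes, and 20.7% of all genes passed the same test. For Flrt3, which had no read in untreated KO cells, voom weights on recovered reads gave -1.50 with an adjusted p of 0.0766.

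The same test flagged 3 sites. PU.1 at the Il7r promoter had a difference of -0.73, and PU.1 at the site 733.6 kb downstream of the Adgrl2 start one of 3.54 ± 0.88 (adjusted p = 0.00281), from 16.7 and 19.5 normalised reads in KO and 7.27 and 5.29 in WT cells with LPS, and 2.11 and 1.22 in KO and 9.83 and 7.56 in WT cells without it. JunB at the Lpar1 site 17.3 kb downstream had one of 2.86 ± 0.85 (adjusted p = 0.0279), which lost its call without 5 of the 8 libraries, 1 at a time (adjusted p up to 0.228).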

How the results depend on the processing

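The median log2 difference of the 6 genes with LPS, -4.49, was -4.10 with a pseudocount of 5 and between -4.64 and -4.38 without 1 library. The 5203 genes called with LPS became 3126 (1528 higher, 1598 lower) with only the compared groups in the fit, between 4537 and 6799 without 1 library and 5124 with voom weights on recovered reads, an alternative added after seeing the data. Calls among the 30 ATAC-seq sites fell from 12 to 7 without the trend of the spread and to 6 among sites above the median level. Shares of all sites are not given for the site counts of this paragraph. With library totals, calls went to 12 from 1 (PU.1 with LPS), 15 from 6 (PU.1 untreated), 12 from 5 (PU.1, LPS in WT), 1 from 2 (PU.1, difference of responses), 7 from 4 (JunB untreated), 18 from 11 (JunB, LPS in WT) and 7 from 1 (MED1). Limma without weights gave 3 and 2 for PU.1 with LPS and for LPS in WT, 0, 7, 5 and 0 for JunB with LPS, untreated, LPS in WT and the difference of responses, and 2 for MED1. Sites within 100 kb gave 3 for PU.1 (LPS in WT) and 1 (difference of responses).

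Without 1 library at a time, PU.1 calls ran from 0 to 2 with LPS, 2 to 6 untreated, 3 to 5 for LPS in WT and 1 to 2 for the difference of responses. JunB calls ran from 4 to 6, 1 to 4, 6 to 12 and 0 to 1 in the same order. MED1 calls ran from 0 to 3, polymerase calls from 1 to 4 and ATAC-seq calls from 8 to 11. Polymerase at the Lpar1 start and 34.1 kb upstream of Adgrl2 passed the read filter in only 2 of these fits each, and both kept their calls there. With library totals 7 signs turned, by the shift of the median that this scaling brings: for LPS in WT, Adgre1 RNA (-0.18), PU.1 at Lpar1 59.7 kb upstream (-0.67) and Shisa3 7.76 kb upstream (-0.66), JunB at Adgrl2 36.0 kb (1.07) and Lpar1 6.44 kb downstream (1.98), and, for KO against WT, polymerase at Il7r (-0.48) and Lpar1 21.5 kb downstream (-0.53).

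Same-numbered libraries did not deviate together (RNA correlations from -0.37 to 0.21, above 0.1 for 1 of 24 pairs). With the replicate number as a block, MED1 calls went to 2 from 1 (Shisa3 start, -1.45, adjusted p = 0.0497), Lpar1 JunB 7.58 kb upstream lost its call (adjusted p = 0.0577), Lpar1 JunB 6.44 kb downstream gained one untreated (adjusted p = 0.0498), Wdr81 lost its own (adjusted p = 0.0589), and 4911 genes were called with LPS. The planned edgeR and DESeq2 alternatives were not run, since the deposited values are not counts. Leaving out 1 library ended calls at sites of few reads and at better covered ones, among them PU.1 at the Il7r promoter (adjusted p up to 0.161).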
